A study of Mus musculus with 5 samples.

Results

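Genes that feed back on MAP kinase signalling were followed in mouse lung group 2 innate lymphoid cells (ILC2s). The set holds 10 of the 27726 genes common to the 5 deposited single-cell matrices, namely *Dusp1*, *Dusp2*, *Dusp4*, *Dusp5*, *Dusp6*, *Dusp10*, *Spry1*, *Spry2*, *Gadd45a* and *Gadd45b*. They were taken by symbol, and all 10 were found in every library. The study pooled lung ILC2s of 5 mice per group, so animals cannot be told apart within a library. It does not say whether the fresh and cultured cells of a week came from the same mice. The mice were female wild-type C57BL/6 animals of 4 to 8 weeks. Cells were sorted as Lin- ST2+ CD127+ Thy1.2+ CD45+ and run on the 10x Genomics 3' platform. The naïve library came from mice without a tumour, and its cells were sequenced fresh. The other 4 libraries were tumour-associated (ta): TC1 cells, a lung tumour line made from C57BL/6 epithelial cells with the HPV E6/E7 and activated Ha-ras oncogenes, had been placed under the skin of the right flank. The ta-non-activated ILC2s were sequenced fresh after 2 weeks (1 library) and 3 weeks (1 library). The ta-activated ILC2s of the same 2 weeks were first cultured for 7 days with rhIL-2, rmIL-33 and TSLP at 10 ng/mL each. Culture and library therefore cannot be told apart within a week, nor week and library within a state, and no naïve cells were cultured. No library held cells cultured without these cytokines, so activation by them and culture itself cannot be told apart. Fresh and cultured are used below for the ta-non-activated and ta-activated states.

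MAP kinases (ERK, JNK and p38) carry growth factor, cytokine and stress signals to the nucleus, and they switch on genes that then feed back on the same kinases. Dual-specificity phosphatases (DUSPs) remove both activating phosphates from a MAP kinase, Sprouty proteins act between receptors and ERK, and GADD45 proteins bind kinases upstream of p38 and JNK. Many of these genes are immediate early genes, whose short-lived transcripts appear soon after a stimulus, including the handling of fresh tissue. In ILC2s the receptors for IL-33 and TSLP lead to the production of IL-13 and IL-5, and MAP kinases are among the pathways downstream of the IL-33 receptor.

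Stretches of promoter are shown first for 4 members whose levels differed between libraries in different ways: *Dusp1* and *Dusp5* were high in the naïve and week 3 fresh libraries, *Dusp6* was highest in the cultured libraries, and *Gadd45b* had the most UMIs of the 10 in each of the 5 libraries. They are RefSeq promoters on GRCm38.p6, limited to bases upstream of the RefSeq start that lie in no annotated exon on the same strand, written 5′ to 3′ on the strand of the gene. Capitals mark a cyclic AMP response element (TGACGTCA) in *Dusp1* and a pair of adjoining CArG boxes, the motif of serum response factor, in *Dusp5*.

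Dusp1, chr17:26508520-26508722, minus strand: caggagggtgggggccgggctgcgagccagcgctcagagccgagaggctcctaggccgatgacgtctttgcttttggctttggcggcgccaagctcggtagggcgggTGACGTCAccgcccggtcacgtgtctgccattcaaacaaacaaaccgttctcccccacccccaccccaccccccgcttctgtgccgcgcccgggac
Dusp5, chr19:53528895-53529108, plus strand: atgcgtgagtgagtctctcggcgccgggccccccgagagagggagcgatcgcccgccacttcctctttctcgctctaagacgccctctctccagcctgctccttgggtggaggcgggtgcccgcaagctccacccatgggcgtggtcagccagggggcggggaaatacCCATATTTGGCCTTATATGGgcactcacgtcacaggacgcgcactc
Dusp6, chr10:99262981-99263230, plus strand: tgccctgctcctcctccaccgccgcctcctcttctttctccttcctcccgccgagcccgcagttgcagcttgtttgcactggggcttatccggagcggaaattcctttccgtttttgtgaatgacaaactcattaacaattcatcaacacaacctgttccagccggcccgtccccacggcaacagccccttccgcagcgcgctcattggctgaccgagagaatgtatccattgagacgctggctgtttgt
Gadd45b, chr10:80929841-80930072, plus strand: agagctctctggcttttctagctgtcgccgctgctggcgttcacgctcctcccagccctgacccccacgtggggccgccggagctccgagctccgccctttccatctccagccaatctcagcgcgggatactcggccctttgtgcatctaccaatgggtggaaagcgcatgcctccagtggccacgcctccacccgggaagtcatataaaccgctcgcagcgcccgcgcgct

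The motifs were searched on both strands in the 250 bases upstream of the start of the 9 members with a RefSeq promoter (all but *Dusp4*). The cyclic AMP response element was found in *Dusp1* alone, from 143 to 136 bases upstream, and in 1.55% of all 32851 promoters. The CArG boxes were found in *Dusp5* alone, from 82 to 73 and from 72 to 63 bases upstream, and a CArG box was in 1.47% of all promoters. The AP-1 motif TGANTCA was in 0 of the 9 members and in 6.75% of all promoters, and the NF-kB motif was in 0 of the 9 and in 3.90%. TATAA lay 46 to 42 bases upstream of *Gadd45b* on the strand of the gene, and in 22.8% of all promoters on either strand. In *Dusp5* it lay on the opposite strand only, 70 to 66 bases upstream inside the second CArG box, where the printed strand reads TTATA. These matches describe letters only, since the data hold no measurement of a factor at these sites.

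A barcode was kept where it held 200 genes or more and a mitochondrial share below 5%. This left 6389 naïve barcodes, 1823 and 1601 fresh barcodes (week 2, then week 3) and 2895 and 3822 cultured barcodes. The median depth was 4517 UMIs (unique molecular identifiers, each 1 captured RNA molecule) per naïve barcode, 16090 and 4396 in the fresh libraries, and 13636 and 12296.5 in the cultured libraries. Pairs of libraries shared between 1 and 11 barcode sequences. Levels below are CPM, a gene's UMI count in a library scaled to 1000000 UMIs in all, with exact Poisson 95% intervals, and shares of barcodes have exact Clopper-Pearson 95% intervals. Both cover counting error only. A CPM level is a share of a library's UMIs and not a number of UMIs per barcode. The naïve and week 3 fresh libraries were the shallowest per barcode, and the part of depth in the differences below was not tested.

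The week 3 fresh library went against its label. Of its barcodes, 880 of 1601 (55.0%) carried UMIs of at least 2 of 8 T lineage markers and of more of these than of 8 ILC2 markers, although the sort removed lineage-positive cells. Such T-marker barcodes were 365 in the naïve library (5.71%) and 7, 40 and 16 in the week 2 fresh and the week 2 and week 3 cultured libraries. Gated ILC2s, in which ILC2 markers outnumbered T lineage markers, made up 42.0% of the week 3 fresh barcodes (673 barcodes) and between 92.3% and 99.1% of the other libraries. The 8 T lineage markers summed to 2024 CPM in the week 3 fresh library against 7.07 to 219 CPM in the others, and the 8 ILC2 markers to 906 CPM against 6129 to 11007 CPM. Every member is therefore given in all kept barcodes and, where it differs, in gated ILC2s.

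The week 2 fresh library stood apart as well. For the immediate early gene *Fos*, chosen after its values were seen, it held 0.692 CPM, close to 1.95 and 1.42 CPM in the cultured libraries and far from 1151 CPM in the naïve and 592 CPM in the week 3 fresh library. The 19 immediate early genes of a fixed list summed to 1580 CPM there, 2041 and 1960 CPM in the cultured libraries, 10589 CPM in the naïve and 7235 CPM in the week 3 fresh library. *Il13* was at 8861 CPM in the week 2 fresh library, 3501 and 4318 CPM in the cultured libraries, 19.6 CPM in the week 3 fresh and 55.6 CPM in the naïve library. By *Fos*, *Il13* and the sum over the list, the library labelled ta-non-activated of week 2 was closer to the cultured libraries than to the other fresh ones. Each week 2 ratio below rests on that label. These values moved with most members below, and their part in the results was not tested. Single immediate early genes still differed between the week 2 libraries. Of the 11 with at least 10 CPM in either, 3 were at least 2-fold lower in the cultured one, against 10.3% of 7532 genes. Another 5 were higher, against 15.6%. Apart from the T lineage markers, the markers of each other cell type summed to less than the ILC2 markers in each library. The epithelial list summed to 288 CPM in the naïve library, led by *Scgb1a1*, and to 2.52 to 85.4 CPM in the others. Endothelial markers summed to 16.04 to 94.9 CPM, NK or ILC1 markers to 0.0485 to 47.1, myeloid markers to 0.993 to 16.1, mast cell or basophil markers to 0 to 121 and B cell markers to 5.03 to 23.3.

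Whether members differed between cultured and fresh cells was asked on 2 cultured against 2 fresh libraries. The quasi-likelihood test of edgeR was used, with Benjamini-Hochberg adjustment over all genes tested. Of 12643 genes, 0 passed an adjusted p of 0.05 (0%), none of the 10 members among them, and the lowest adjusted p was 0.243. At an unadjusted p under 0.05 there were 2120 genes and 3 members. These were *Dusp6*, with a log2 fold change of 1.98 (SE 0.53, adjusted p = 0.252), *Spry2*, with -4.00 (SE 1.25, adjusted p = 0.261), and *Dusp10*, with -3.92 (SE 1.37, adjusted p = 0.279). Each SE was derived from the test, as the absolute log2 fold change divided by the square root of its F statistic. In sign, 8 members were lower and 2 higher in the cultured libraries, and the median of the 10 log2 fold changes was -2.59 against -0.02 over all genes tested. DESeq2 on the same libraries called 1047 of 12575 genes (8.33%) and 3 of the 10 members, with *Dusp6* higher (adjusted p = 0.0231) and *Dusp10* (adjusted p = 0.0122) and *Spry2* (adjusted p = 0.00871) lower.

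The outcome rested on the fresh libraries. Without the week 2 fresh library, edgeR called 1646 genes, 829 of 13604 (6.09%) being lower in the cultured libraries, and 5 of the 10 members were called, all lower. They were *Dusp1* (adjusted p = 0.0269), *Dusp5* (0.0352), *Dusp10* (0.0255), *Spry2* (0.0269) and *Gadd45a* (0.0428). Without the week 3 fresh library, edgeR called 513 genes and 0 members, 5 members were lower and 5 higher, and the median of the members turned from -2.59 to 0.23. In both fits the lone fresh library was assumed to vary like the cultured pair. With gated ILC2s only and without the week 2 fresh library, 463 genes were called, 250 of 13258 (1.89%) being lower, and 4 members, namely *Dusp1*, *Dusp5*, *Dusp10* and *Spry2*, all lower. *Gadd45a* was not called there. The values by library follow, in order of the proteins' roles.

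**Figure D1:**
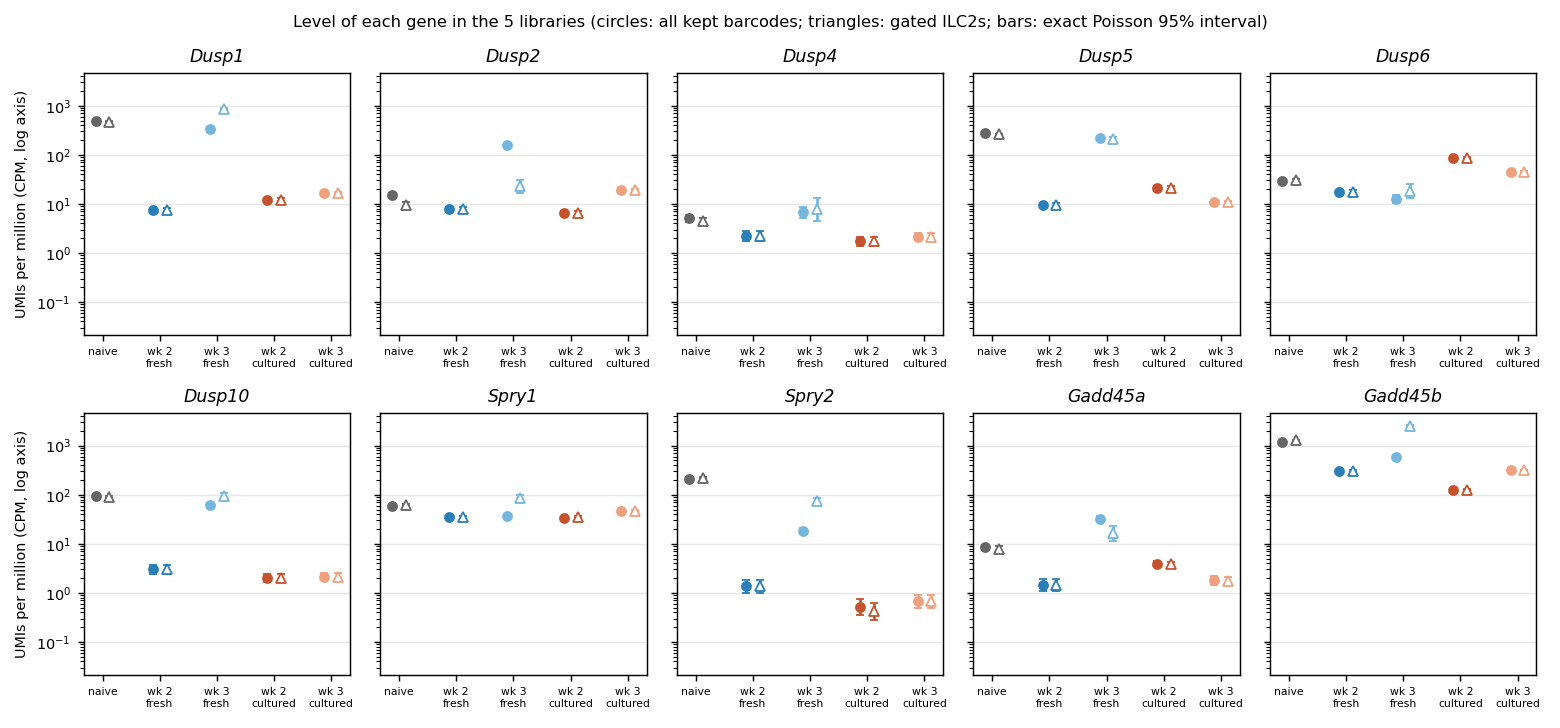
Level of each of the 10 genes in the 5 libraries, in CPM on a log axis. Circles are all kept barcodes and triangles gated ILC2s, with exact Poisson 95% intervals as bars. *Dusp1*, *Dusp5*, *Dusp10* and *Spry2* are high in the naïve and week 3 fresh libraries and low in the other 3, while *Dusp6* is highest in the 2 cultured libraries and *Spry1* stays between 34.3 and 58.1 CPM in all kept barcodes.

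*Dusp1*, *Dusp2*, *Dusp4* and *Dusp5* encode the inducible phosphatases of the nucleus. *Dusp1* (ENSMUSG00000024190, chromosome 17 from 26505590 to 26562128, GRCm38, GENCODE M21) acts on p38, JNK and ERK. It was at 493 CPM (95% interval 485 to 501) in the naïve library, 7.40 (6.51 to 8.39) and 341 (330 to 353) in the week 2 and week 3 fresh libraries, and 11.98 (11.1 to 12.9) and 16.5 (15.5 to 17.6) in the cultured libraries. The fresh pair thus lay on either side of the cultured pair. In week 2 the cultured level was 1.62-fold the fresh one (1.40 to 1.88), and in week 3 it was 20.7-fold lower (19.2 to 22.2). Among gated ILC2s the week 3 fresh level was 844 CPM (804 to 885), above the naïve 474 CPM, and the week 3 difference widened to 51.0-fold (47.1 to 55.1). The naïve level was 66.6-fold (58.7 to 75.8) that of the week 2 fresh library. The gene model overlaps the antisense gene *Ergic1* and 2 short genes on its own strand, and strand was not checked here.

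*Dusp5*, which acts on ERK and holds it in the nucleus, lies on chromosome 19 from 53529109 to 53542431. Its level was 277 CPM (271 to 283) in the naïve library, 9.39 (8.38 to 10.5) and 222 (213 to 232) in the fresh libraries, and 21.4 (20.2 to 22.6) and 10.7 (9.88 to 11.5) in the cultured libraries. As for *Dusp1*, the cultured library was above the fresh one in week 2, by 2.28-fold (2.01 to 2.59), and below it in week 3, by 20.8-fold (19.0 to 22.7). Gated ILC2s gave nearly the same level in week 3, 206 CPM (186 to 226), so the week 3 difference was 19.3-fold (17.0 to 21.9).

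*Dusp2*, a phosphatase of lymphocytes and other blood cells, lies on chromosome 2 from 127336159 to 127338376. It was at 15.3 CPM (13.99 to 16.7) in the naïve library, 7.79 (6.87 to 8.80) and 157 (149 to 165) in the fresh libraries, and 6.40 (5.76 to 7.09) and 19.6 (18.5 to 20.7) in the cultured libraries. The week 3 fresh level stood alone. In that library the T-marker barcodes were at 196 CPM (186 to 206) and the gated ILC2s at 22.9 CPM (16.7 to 30.5). In all kept barcodes the week 3 cultured level was 8.03-fold lower than the fresh one (7.44 to 8.67). In gated ILC2s it was 1.18-fold lower, with an interval of 0.857 to 1.58 that holds 1. Between the 2 cultured libraries, week 3 was 3.06-fold higher (2.72 to 3.45).

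*Dusp4*, a nuclear phosphatase of ERK and JNK on chromosome 8 from 34807297 to 34819894, was the only member under 10 CPM in every library. It was at 5.03 CPM in the naïve library, 2.23 and 6.71 in the fresh libraries and 1.73 and 2.15 in the cultured libraries. In week 2 the cultured level was 0.775 of the fresh one (0.568 to 1.06), a difference not detectable at this depth. In week 3 it was 3.12-fold lower (2.27 to 4.24).

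*Dusp6*, the phosphatase of the cytoplasm that acts on ERK and is a common readout of ERK activity, went the other way. The gene lies on chromosome 10 from 99263231 to 99267489. It was at 29.0 CPM (27.1 to 30.9) in the naïve library, 17.8 (16.4 to 19.3) and 12.3 (10.2 to 14.8) in the fresh libraries, and 84.8 (82.4 to 87.2) and 45.2 (43.5 to 46.9) in the cultured libraries. Both cultured libraries were above all 3 fresh ones. The cultured level was 4.76-fold the fresh one in week 2 (4.37 to 5.19) and 3.66-fold in week 3 (3.04 to 4.44), or 2.46-fold (1.78 to 3.50) among gated ILC2s. It was the only member that was over 2-fold higher after culture in both weeks, and its edgeR log2 fold change stayed positive without either fresh library.

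*Dusp10*, a phosphatase of JNK and p38 on chromosome 1 from 184013302 to 184075636, had the same 2 high libraries as *Dusp1*. It was at 94.1 CPM (90.8 to 97.5) in the naïve library, 3.01 (2.45 to 3.66) and 61.7 (56.8 to 67.0) in the fresh libraries, and 2.04 (1.69 to 2.44) and 2.15 (1.80 to 2.55) in the cultured libraries. In week 3 the cultured level was 28.7-fold lower than the fresh one (23.7 to 34.9), or 42.9-fold (34.1 to 54.0) in gated ILC2s, and in week 2 1.48-fold lower (1.12 to 1.94). Gated ILC2s of the naïve and week 3 fresh libraries, at 88.8 and 92.4 CPM, had overlapping intervals. The gene model overlaps the antisense gene *1700056E22Rik* and holds 59293 intronic bases, the most of the 10 members.

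*Spry2*, an inhibitor of receptor signalling to ERK on chromosome 14 from 105891947 to 105896819, had the widest range of all members. It was at 212 CPM (207 to 217) in the naïve library, 1.35 (0.988 to 1.81) and 18.4 (15.8 to 21.4) in the fresh libraries, and 0.523 (0.353 to 0.747) and 0.679 (0.490 to 0.918) in the cultured libraries. The naïve level was 157-fold (117 to 215) the week 2 fresh one and 11.5-fold (9.90 to 13.5) the week 3 fresh one. Among gated ILC2s the week 3 fresh level was 74.02 CPM (62.6 to 86.9), which left the naïve level 2.98-fold higher (2.53 to 3.53). Both cultured libraries were below their fresh partner, by 2.59-fold in week 2 (1.60 to 4.26) and 27.1-fold in week 3 (19.3 to 38.9), or 109-fold (76.8 to 157) in week 3 gated ILC2s.

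*Spry1*, the other Sprouty member, on chromosome 3 from 37639947 to 37644598, varied least. It was at 58.1 CPM (55.5 to 60.8) in the naïve library, 34.6 (32.6 to 36.6) and 37.3 (33.45 to 41.4) in the fresh libraries, and 34.3 (32.8 to 35.8) and 46.7 (45.0 to 48.4) in the cultured libraries. The week 2 ratio of cultured to fresh was 0.991 (0.921 to 1.07). The week 3 ratio depended on the barcodes, with 1.25-fold higher in all kept barcodes (1.12 to 1.40) and 1.84-fold lower (1.57 to 2.14) in gated ILC2s, whose fresh level was 85.9 CPM.

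*Gadd45b*, a partner of the kinase upstream of p38 and JNK that is induced by NF-kB and TGF-beta, lies on chromosome 10 from 80930073 to 80932204. It was at 1216 CPM (1204 to 1228) in the naïve library, 305 (299 to 311) and 598 (583 to 614) in the fresh libraries, and 128 (125 to 131) and 320 (315 to 324) in the cultured libraries. Each cultured library was below its fresh partner, by 2.39-fold in week 2 (2.32 to 2.46) and 1.87-fold in week 3 (1.82 to 1.93). Among gated ILC2s the week 3 fresh level was 2563 CPM (2493 to 2634), and the week 3 difference was 8.01-fold (7.77 to 8.26). The direction against the naïve library turned with the gate: in all kept barcodes the week 3 fresh level was 2.03-fold lower (1.98 to 2.09), and in gated ILC2s it was 1.98-fold higher (1.92 to 2.04). The cultured libraries also differed from each other, with week 3 at 2.50-fold the level of week 2 (2.44 to 2.57).

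*Gadd45a*, induced by p53 and by DNA damage, lies on chromosome 6 from 67035096 to 67037457. It was at 8.43 CPM (7.46 to 9.49) in the naïve library, 1.47 (1.09 to 1.95) and 32.7 (29.1 to 36.5) in the fresh libraries, and 3.96 (3.46 to 4.51) and 1.80 (1.48 to 2.16) in the cultured libraries. As for *Dusp1* and *Dusp5*, the cultured library was higher in week 2, by 2.68-fold (1.96 to 3.73), and lower in week 3, by 18.2-fold (14.6 to 22.8). In week 3 fresh gated ILC2s the level was 16.4 CPM (11.3 to 23.0), against 37.4 in T-marker barcodes, and the week 3 difference was 9.28-fold (6.09 to 13.8). Its 5′ part overlaps the antisense gene *E230016M11Rik*.

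**Figure D2:**
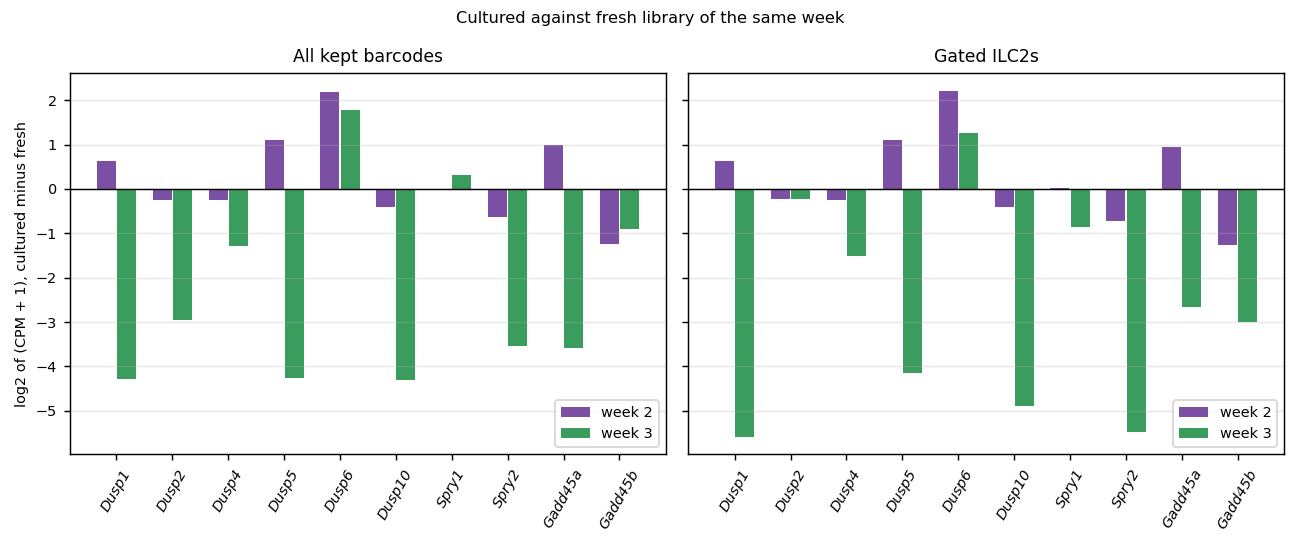
Difference between the cultured and the fresh library of the same week on the log2(CPM + 1) scale, for all kept barcodes (left) and gated ILC2s (right). Bars above 0 are higher in the cultured library; there is 1 library on each side of each bar, so no error between libraries can be drawn. *Dusp6* is above 0 in both weeks and both panels, while *Dusp1*, *Dusp5* and *Gadd45a* are above 0 in week 2 and below it in week 3.

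Counts of members were read against the share of all genes that differed as much, where a call is a 2-fold difference on the log2(CPM + 1) scale with at least 10 CPM in 1 of the 2 libraries. A gene can thus pass through the library where it is high alone, which favours large differences, for members and all genes alike. In week 2, 5 of the 10 members reached 10 CPM. Of them 1 was lower in the cultured library (*Gadd45b*), against 10.3% of 7532 genes, and 2 were higher (*Dusp5* and *Dusp6*), against 15.6%. *Dusp5* reached 10 CPM in the cultured library alone. In week 3, 9 reached it. Of them 6 were lower (*Dusp1*, *Dusp2*, *Dusp5*, *Dusp10*, *Spry2* and *Gadd45a*), against 16.3% of 8189 genes, and 1 was higher (*Dusp6*), against 18.9%. With gated ILC2s the week 3 count was again 6 lower, *Gadd45b* taking the place of *Dusp2*, against 10.1% of 7855 genes, and 1 higher, against 22.7%. In both week 3 counts *Dusp10*, *Spry2* and *Gadd45a* reached 10 CPM in the fresh library alone. In sign alone, 5 of the 10 members were lower in the cultured library in both weeks, and *Dusp6* was the 1 member that was higher in both. The share of all genes lower or higher in both weeks was not computed, so neither count can be read against it. Among the lower members, the week 2 interval of *Dusp4* (cultured over fresh) held 1, at 0.568 to 1.06. The week 3 interval of *Dusp2* in gated ILC2s (fresh over cultured) also held 1, at 0.857 to 1.58. The 2 weeks share no library.

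The naïve library was set beside each fresh tumour-associated library, 1 library a side and so with no test. By the file headers, its reads were also counted with a later software release than those of the tumour-associated libraries. Release and tumour therefore cannot be told apart in any comparison with naïve cells, here, above or below. The part of the release in these differences was not tested. Against the week 2 fresh library, all 10 members were higher in naïve cells. The share of all genes higher in naïve cells was not computed, so counts by sign in this paragraph cannot be read against it. Of the 8 that reached 10 CPM, 5 were at least 2-fold lower in the tumour-associated library (*Dusp1*, *Dusp5*, *Dusp10*, *Spry2* and *Gadd45b*), against 34.4% of 8326 genes, and 0 were higher, against 21.4%. Of the 5, all but *Gadd45b* reached 10 CPM in the naïve library alone. The median of all 8326 genes was itself -0.25 on the log2 scale, and scaling to TMM library sizes moved each ratio up by 0.30. Against week 3, 7 of the 10 were higher in naïve cells. Of the 9 that reached 10 CPM, 3 were lower in the tumour-associated library (*Dusp6*, *Spry2* and *Gadd45b*), against 28.8% of 8529 genes, and 2 were higher (*Dusp2* and *Gadd45a*), against 19.4%. *Gadd45a* reached 10 CPM in the tumour-associated library alone. In gated ILC2s the same comparison gave 3 members that were higher in naïve cells, with 1 lower by 2-fold (*Spry2*), against 26.4% of 7889 genes, and 1 higher (*Dusp2*), against 2.88%. *Dusp2* reached 10 CPM there in the tumour-associated library alone. *Gadd45a* and *Gadd45b* lay just short of the 2-fold limit there, at 0.99 for both on the log2 scale. The median of the 10 members in all kept barcodes was -1.96 in week 2 and -0.56 in week 3, where all genes had -0.25 and -0.11. In gated ILC2s it was -1.95 and 0.59, where all genes had -0.22 and -0.27.

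The 2 fresh tumour-associated libraries also differed from each other. Among gated ILC2s all 10 members were higher in week 3 than in week 2, where the median of all genes was -0.13 on the log2 scale. The share of all genes higher in week 3 was not computed. Of the 9 at 10 CPM, 8 were higher by 2-fold or more, against 17.9% of 7480 genes, and 0 lower, against 22.8%. Of the 8, all but *Spry1* and *Gadd45b* reached 10 CPM in the week 3 library alone. *Dusp1* was 114-fold higher (99.3 to 130), *Spry2* 54.4-fold (38.8 to 77.8) and *Dusp10* 30.6-fold (23.9 to 39.4). *Dusp6* was the exception, at 1.03-fold with an interval of 0.721 to 1.44. Week, sort and library cannot be told apart here, and the difference between weeks was not tested.

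**Figure D3:**
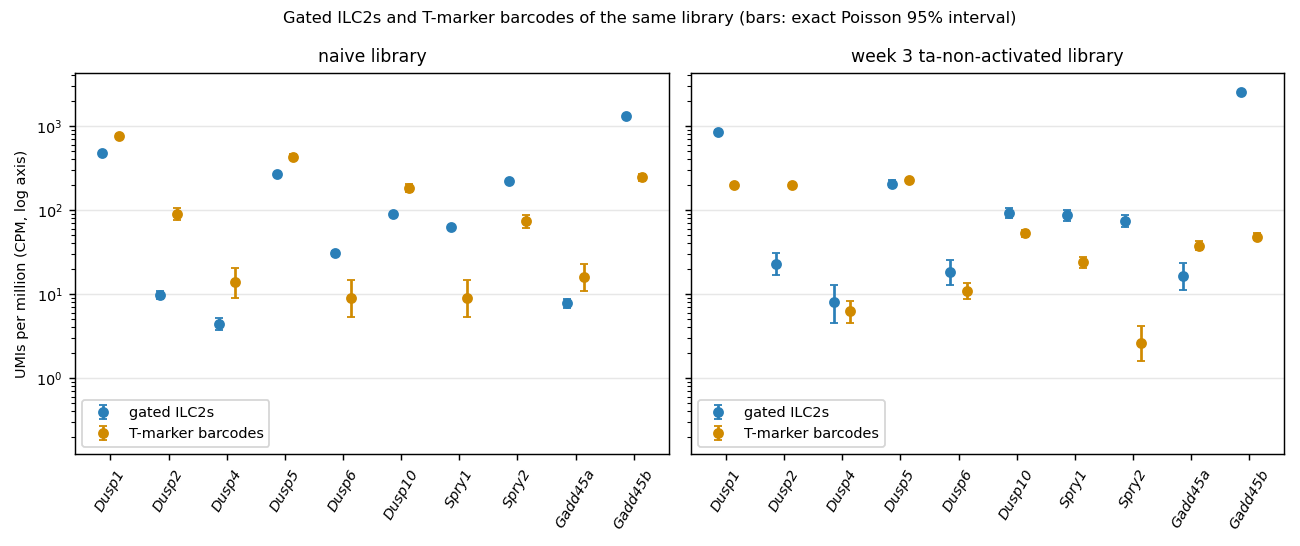
Level of the members in gated ILC2s and in T-marker barcodes of the naïve (left) and week 3 fresh library (right), in CPM on a log axis with exact Poisson 95% intervals. In both libraries *Gadd45b*, *Spry1*, *Spry2* and *Dusp6* are higher in gated ILC2s and *Dusp2*, *Dusp5* and *Gadd45a* in T-marker barcodes, while *Dusp1*, *Dusp4* and *Dusp10* change order between the libraries. The week 3 intervals of *Dusp4*, *Dusp5* and *Dusp6* overlap, so their order there is not settled.

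Within the naïve and the week 3 fresh library, gated ILC2s and T-marker barcodes held different members. *Gadd45b* in gated ILC2s was at 1294 CPM (1281 to 1307) naïve and 2563 in week 3, against 244 (222 to 267) and 48.2 (43.3 to 53.5) in T-marker barcodes. *Spry2* was at 220 and 74.02 CPM in gated ILC2s against 73.4 and 2.62 in T-marker barcodes, and *Spry1* at 62.0 and 85.9 against 9.04 and 24.0. These 3 genes were thus lower in the T-marker barcodes of both libraries, as was *Dusp6*, at 9.04 and 10.9 CPM against 30.3 and 18.4, with overlapping intervals in week 3. *Dusp2* was the reverse, at 9.69 and 22.9 CPM in gated ILC2s against 89.4 and 196 in T-marker barcodes. *Dusp1* had no fixed order, at 474 and 844 CPM in gated ILC2s against 756 and 199. *Dusp5*, at 264 and 206 CPM in gated ILC2s, was at 430 and 225 in T-marker barcodes, with overlapping intervals in week 3. The heat shock gene *Hspa1a* also followed the gate in week 3, at 979 CPM in T-marker barcodes and 132 in gated ILC2s.

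Shares of barcodes were compared among gated ILC2s of 2000 UMIs or more, after random thinning of every barcode to exactly 2000 so that depth is equal. This left 5686 naïve barcodes (210 were shallower), 1791 and 592 fresh barcodes (11 and 81 shallower) and 2736 and 3695 cultured barcodes (63 and 92 shallower). *Gadd45b* was seen in 67.6% of naïve gated ILC2s (66.4 to 68.8), 38.9% (36.7 to 41.2) and 77.9% (74.3 to 81.2) of fresh ones and 17.5% (16.1 to 19.0) and 36.6% (35.0 to 38.2) of cultured ones. Without thinning these shares were 78.5%, 81.5%, 80.4%, 57.1% and 80.2%, at median depths of 4494.5, 16174, 2792, 13835 and 12359 UMIs. *Dusp1* was seen in 41.7% of naïve, 1.23% and 48.3% of fresh and 2.56% and 3.27% of cultured gated ILC2s after thinning, and in 59.6%, 10.9%, 53.9%, 16.4% and 17.7% before. *Spry2* was seen in 27.5% of naïve gated ILC2s and 11.1% of week 3 fresh ones. It was seen in 0 of 1791 week 2 fresh ones, where 3 counts would be 0.168%, against 42 of 1802 (2.33%) without thinning, so the 0 holds for the thinned depth alone. After thinning it was seen in 1 of 2736 week 2 cultured and in 5 of 3695 week 3 cultured ones. *Dusp6* was seen in 5.40% of naïve, 4.36% and 3.38% of fresh and 14.3% (13.0 to 15.7) and 9.07% (8.16 to 10.0) of cultured ones. No cell type in these libraries is known to lack all of these genes, so a background share from free RNA could not be set. The lowest shares in T-marker barcodes of week 3, at a median depth of the same 2000 thinned UMIs, were 0.344% for *Spry2* and 1.60% for *Dusp4*.

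**Figure D4:**
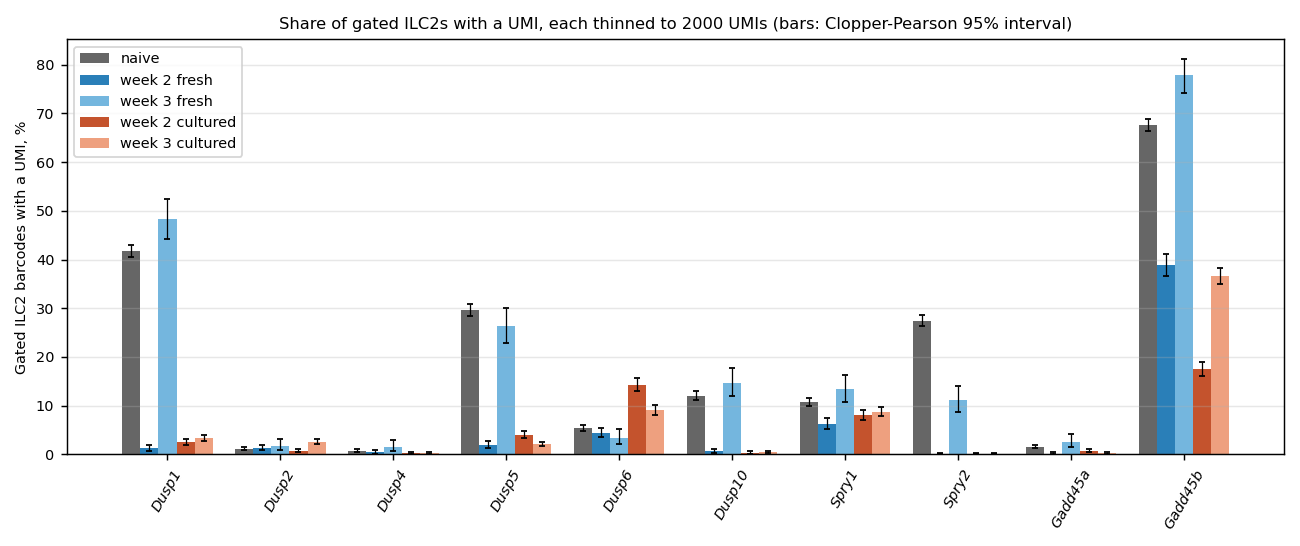
Percentage of gated ILC2 barcodes with at least 1 UMI of each member after thinning to 2000 UMIs, by library, with Clopper-Pearson 95% intervals. *Gadd45b* is seen in the largest share in each library, from 17.5% to 77.9%, *Dusp1* and *Dusp5* in over 26% of naïve and week 3 fresh barcodes and under 4% of the other 3 libraries, and *Dusp6* in the largest shares in the 2 cultured libraries.

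The members were also counted together in single barcodes. After thinning, gated ILC2s held a median of 2 of the 10 members in the naïve and week 3 fresh libraries, 0 in the week 2 fresh and week 2 cultured libraries and 1 in the week 3 cultured library. Of them 33.3% naïve and 32.8% week 3 fresh barcodes held 3 or more members, against 0.558% in week 2 fresh and 0.694% and 1.24% in cultured ones. None of the 10 was seen in 11.7% and 11.5% of the first 2 libraries and in 52.0%, 59.8% and 48.7% of the other 3.

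Gated ILC2s were then divided within each library by a UMI of *Il13*, which is also 1 of the 8 markers of the gate, after thinning and as a description. *Gadd45b* was higher in the barcodes with *Il13* in each of the 5 libraries. Its levels with and without *Il13* were 1940 and 1259 CPM in the naïve library, 315 and 182 in the week 2 fresh, 3233 and 2541 in the week 3 fresh, 142 and 67.2 in the week 2 cultured, and 322 and 300 in the week 3 cultured library. The last pair was the closest, with intervals of 317 to 327 and 286 to 314. The barcodes with *Il13* were 278 of 5686 naïve, 1598 of 1791 and 29 of 592 fresh, and 2038 of 2736 and 3188 of 3695 cultured. *Spry1* was also higher in the barcodes with *Il13* in each library, with overlapping intervals in week 3 fresh, at 122 and 85.2 CPM. Its other pairs were 85.0 and 60.8 naïve, 35.4 and 25.4 week 2 fresh, and 36.7 and 28.0, then 48.4 and 30.8, in the cultured libraries. The low *Dusp4* was higher with *Il13* in each library too, with overlapping intervals in the week 2 fresh, week 3 fresh and week 2 cultured libraries. *Spry2* was higher with it in the naïve library, at 298 and 216 CPM, and in week 3 fresh, at 187 (114 to 289) and 64.3 (53.0 to 77.3). It was also higher in week 3 cultured, at 0.718 and 0.169, and lower in both week 2 libraries. *Dusp2* differed this way mainly after culture, at 7.37 and 2.51 CPM in week 2 and 20.5 and 9.48 in week 3. *Dusp5* was higher with *Il13* in the naïve library, at 385 and 258 CPM, and in the week 2 cultured library, at 22.8 and 15.6. In the week 3 fresh library it was at 309 and 201 CPM with overlapping intervals (213 to 434 and 181 to 223), and it was at 9.45 and 7.89 in the week 2 fresh and 10.6 and 10.5 in the week 3 cultured library. Not every member was higher with *Il13*. *Dusp6* was lower with it in the week 2 fresh library, at 16.9 (15.5 to 18.4) against 29.4 CPM (22.7 to 37.3), and higher in both cultured libraries. *Dusp1* was lower with it in the week 3 fresh library, at 665 (520 to 839) against 892 CPM (849 to 937). In the naïve library *Dusp1* was at 466 against 476 CPM. Barcodes with *Il13* were the deeper ones in each library, from medians of 3239 against 2937 UMIs in the week 3 fresh to 16951 against 10426 in the week 2 fresh library, and the part of depth was not tested.

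A second division was by cycling, called where at least 2 of 12 cell-cycle genes had a UMI after thinning. *Gadd45b* was lower in cycling barcodes in each library, at 493 CPM against 1311 in the naïve, 199 against 320 in the week 2 fresh, 992 against 2609 in the week 3 fresh, 93.8 against 146 in the week 2 cultured and 229 against 352 in the week 3 cultured library. There were 38 cycling gated ILC2s in the naïve and 5 in the week 3 fresh library, against 128, 633 and 631 in the other 3. *Spry1* was lower in cycling barcodes of the naïve library, at 17.2 CPM (7.43 to 33.9) against 62.9, and of both cultured libraries, at 26.7 against 39.6 and 38.3 against 49.7. *Dusp1* was higher in cycling barcodes of the naïve and week 3 cultured libraries, at 764 against 471 and 21.2 against 14.9 CPM, but not of the week 2 cultured library, at 11.0 against 12.5. In the 5 cycling barcodes of the week 3 fresh library it was lower, at 451 (252 to 743) against 887 (845 to 931). *Dusp2*, which T-marker barcodes held at higher levels, was higher in cycling barcodes of each fresh library. It was at 36.6 CPM (21.3 to 58.6) against 9.26 naïve, 14.5 against 6.79 in week 2 and 270 (124 to 513) against 19.0 in week 3. In the cultured libraries it was lower, at 5.12 against 7.16 and 15.6 against 20.8. The part of other cells in the cycling barcodes was not tested. Cycling barcodes were deeper, with medians of 10866.5 against 4557.5 UMIs in the naïve library, and the part of depth was not tested.

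**Figure D5:**
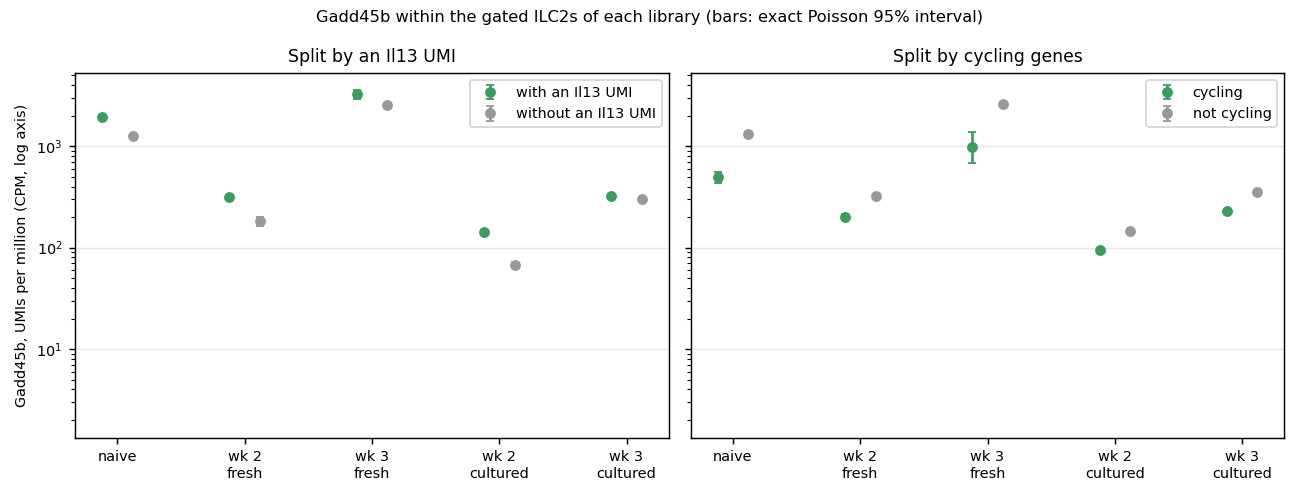
Level of *Gadd45b* in gated ILC2s of each library, in CPM on a log axis with exact Poisson 95% intervals, divided by a UMI of *Il13* (left) and by cycling genes (right). In each library *Gadd45b* is higher with an *Il13* UMI and lower in cycling barcodes, and the range over libraries, from 67.2 to 3233 CPM on the left, is wider than any pair.

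Other genes of the pathway came from lists that do not overlap with the members. Of 10 further MAP kinase phosphatase, Sprouty-related and GADD45 genes, 9 were measured and tested and 0 were called by edgeR, 4 being lower and 5 higher in the cultured libraries, with a median log2 fold change of 0.71, or 0.46 in gated ILC2s. DESeq2 called 2 of them, both higher, against 563 of 12575 genes called higher. The highest by mean level was *Gadd45g*, at 21.6 CPM in the naïve library, 88.3 and 15.9 in the fresh and 132 and 62.4 in the cultured libraries. It was lowest in the 2 libraries in which *Gadd45b* was highest. *Dusp16*, a phosphatase of JNK and p38, was at 41.5 CPM naïve and between 4.15 and 15.1 in the others, and *Dusp7*, a cytoplasmic ERK phosphatase, at 13.1 CPM naïve, 9.57 and 3.94 fresh and 22.4 and 16.9 cultured. Like *Dusp6*, *Dusp7* and *Dusp16* were at least 2-fold higher in the cultured library in both weeks, also in gated ILC2s. In all kept barcodes 2 of the 4 that reached 10 CPM were so in week 2, against 15.6% of 7532 genes. In week 3 it was 3 of 4, with *Gadd45g*, against 18.9% of 8189 genes, and 0 were lower in either week. Of 9 atypical dual-specificity phosphatases edgeR and DESeq2 called 0, 2 being lower and 7 higher, with a median of 0.59. *Dusp11*, which acts on RNA, led them at 127 to 190 CPM.

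Of 24 ERK, JNK and p38 cascade kinases edgeR and DESeq2 called 0, 13 being lower and 11 higher, with a median log2 fold change of -0.03. In gated ILC2s 17 were lower and 7 higher. *Map2k2* was at 82.7 CPM naïve and between 124 and 222 in the others, and *Braf* at 239 CPM naïve and between 10.4 and 21.5 in the others. Of the 19 immediate early genes edgeR called 0, 15 being lower and 4 higher, with a median of -1.26. DESeq2 called 4 of them, all lower, against 484 of 12575 genes called lower. The edgeR median was -1.94 without the week 2 and 0.35 without the week 3 fresh library. *Junb* was at 3039 CPM naïve, 590 and 2769 fresh and 498 and 676 cultured, and *Jund* at 1450 naïve, 393 and 1288 fresh and 1006 and 839 cultured. As for *Dusp1*, naïve and week 3 fresh levels exceeded the week 2 fresh level for both. Of 7 heat shock genes edgeR called 0 and DESeq2 5, all lower, against 484 of 12575 genes called lower. All 7 had a negative log2 fold change, with a median of -1.83, or -0.94 in gated ILC2s. In all kept barcodes the median was -1.93 without the week 2 and -1.70 without the week 3 fresh library. In week 3 alone 3 of the 7 were lower and 4 higher in gated ILC2s. *Hspa8* was at 866 CPM naïve, 2919 and 3225 fresh and 1964 and 1919 cultured. Of 9 receptors and adaptors for the culture cytokines edgeR and DESeq2 called 0, 2 being lower and 7 higher, with a median of 0.77. In gated ILC2s 5 were lower and 4 higher, with a median of -0.01. *Il7r*, a chain of the TSLP receptor, was at 1372 CPM naïve, 168 and 424 fresh and 566 and 690 cultured, and *Il2ra* at 425 naïve, 321 and 136 fresh and 1107 and 356 cultured. *Il1rl1*, which encodes the IL-33 receptor ST2, was at 791 CPM naïve and between 46.7 and 121 in the others. These levels are of all kept barcodes, and the gate changed the reading in week 3. Of the 8 that reached 10 CPM in week 3 gated ILC2s, 2 were at least 2-fold lower in the cultured library (*Il1rl1* and *Il7r*), against 10.1% of 7855 genes. Another 3 were higher (*Il2ra*, *Il2rb* and *Myd88*), against 22.7%. In edgeR without the week 2 fresh library, the median log2 fold change was 1.12 for these 9 and 0.30 for the 24 kinases. It was 0.58 for the 9 atypical phosphatases and 1.75 for the 9 further feedback genes. Without the week 3 fresh library the medians were 0.49, -0.02, 0.08 and -0.10, in the same order.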

How the data were processed

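For each of 5 libraries the authors deposited a matrix of unnormalized UMI counts by gene and barcode, made with Cell Ranger (3.0.2 and, in the header of the naïve matrix, 6.0.0) on GRCm38 per the submitters' processing notes. The annotation used for counting is not given in the sources used here. Members and lists were chosen with earlier results of these data known. All 10 members are described. Of each other list, genes past the edgeR threshold of 0.05 and otherwise the 3 with the highest mean CPM were to be named, and others are said to be chosen after their values were seen. A gene that this rule names is not reported here.

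Counts of kept barcodes were summed per library and tested with edgeR 4.0.16 (filterByExpr, TMM, quasi-likelihood F test, 2 libraries against 2) in R 4.3.3. The fit was also run on simulated data with less spread between libraries than these data have. The common biological coefficient of variation, a measure of that spread, was 0.513 in these data. The simulation therefore does not give the power of the test here. No source says that the libraries of a group are independent beyond their week, so p-values measure the spread between these libraries. Alternatives were DESeq2 1.42.0, other barcode filters, gated ILC2s, no filter on low counts, a replicate block for the week, 5 libraries in 1 fit and each library left out. Ratios of CPM have exact conditional binomial 95% intervals. No doublet caller was run, and barcodes of the top 5% of UMIs were left out as an alternative. Positions came from GENCODE M21, in which 99.7% of the gene identifiers were found. Python 3.11.15, numpy 2.4.6, scipy 1.17.1, pandas 2.3.3 and matplotlib 3.10.9 were used.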

Additional observations from a re-analysis of the deposited data

Results flagged for a closer look

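In 3 members the difference between cultured and fresh libraries had opposite directions in the 2 weeks, with each ratio's counting interval on its own side of 1. The difference between the weeks was not tested, since each week has 1 library a side. *Dusp1* was at 0.63 in week 2 and -4.29 in week 3 on the log2(CPM + 1) scale, a gap of -4.91. *Dusp5* was at 1.11 and -4.26, a gap of -5.36. *Gadd45a* was at 1.003 and -3.59, a gap of -4.59, but its week 2 levels, 1.47 CPM fresh and 3.96 CPM cultured, were under the 10 CPM needed for a call. In gated ILC2s the directions were the same, with week 3 values of -5.59 for *Dusp1*, -4.15 for *Dusp5* and -2.65 for *Gadd45a*. In each case the cultured libraries were closer to each other than the fresh libraries were, the fresh levels being 46.1-fold, 23.6-fold and 22.2-fold apart in all kept barcodes.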

How the results depend on the processing

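The edgeR test called 0 genes and 0 members also with all deposited barcodes, a mitochondrial limit of 10%, gated ILC2s only, no top 5% of barcodes, no filter on low counts, 5 libraries in 1 fit and a replicate block for the week (0 genes, and 1505 at an unadjusted p under 0.05). DESeq2 called 1047 genes and 3 members. Leaving out 1 library gave 0 to 1646 genes and 0 to 5 members, and in gated ILC2s without 1 fresh library, added after seeing the data, 463 to 743 genes and 0 to 4 members. The comparison of 3 fresh with 2 cultured libraries, also added, called 0 genes (1254 at an unadjusted p under 0.05), and 0 with gated ILC2s (1585). Directions turned for 5 members. Over the fits with 1 library left out the log2 fold change ranged from -4.52 to 0.69 for *Dusp1*, -3.60 to 0.47 for *Dusp2*, -3.71 to 0.54 for *Dusp5*, -3.43 to 0.73 for *Gadd45a* and -0.13 to 0.30 for *Spry1*. The first 4 were above 0 without the week 3 fresh library, and in gated ILC2s they were then 0.69, 0.48, 0.54 and 0.67. *Spry1*, at 0.07, turned to -0.73 in gated ILC2s, -0.023 without the week 3 fresh and -0.13 without the week 3 cultured library, -0.055 and -0.66 with 3 fresh libraries (all kept and gated), and -1.21 and -0.016 in gated ILC2s without the week 2 or the week 3 fresh library. The number of members higher in the cultured library in both weeks was 2 without the top 5% of barcodes, as *Spry1* joined. The number higher in the naïve than in the week 3 fresh library was 3 in gated ILC2s, where the log2 ratio of *Gadd45b* turned to 0.99. The cause of each change was not tested. Directions within both weeks cannot be had without 1 library. Depth limits *Dusp4*, under 10 CPM in each library, and shares: the week 3 fresh library holds 592 gated ILC2s at the depth compared.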
